A study of Mus musculus with 7 samples.

Results

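Keratin-associated proteins fill the space between the keratin filaments of the hair shaft. The deposited table held 49 genes whose symbol begins with Krtap and a number, out of 13167 transcripts, and all 49 are described here. Members were chosen by symbol alone, no symbol was repeated, and each gene was represented by 1 transcript. By family number, 12 genes belong to the high-glycine-tyrosine class (families 6, 7, 8, 19, 21 and 22) and 35 to the cysteine-rich class. The other 2, Krtap16-1 and Krtap16-3, were left unclassed.

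The measurements are ribosome footprints, the short pieces of mRNA that ribosomes shield from nuclease, so a count over a coding region reflects how many ribosomes were on that mRNA. Footprints were counted in primary mouse epidermis of 2 libraries with a transgenic knockout of Pelo (KO) and of 2 wild-type libraries (WT). Pelo encodes Pelota, a factor that rescues stalled ribosomes. The labels name no age, promoter, Cre driver, deleted exon or strain, give cell growth only by a citation, and do not state whether each replicate is a separate animal. The p-values therefore measure only the spread between these libraries.

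Pelo itself had counts of 24 and 21 in KO replicates 1 and 2 and of 101 and 61 in WT replicates 1 and 2, the order of replicates used throughout (log2 change −1.65, SE 0.245, adjusted p = 0.000807). Coding footprints totalled 4925876 and 4521561 in KO, and 5282276 and 4221675 in WT. The labelled tissue was checked against markers: basal keratinocyte genes such as Krt5 and Krt14 took 2.43% and 2.22% of the coding total in KO and 1.58% and 1.69% in WT. Dermal fibroblast genes were present too, at 4.36% and 4.90% in KO and 8.74% and 12.96% in WT. Of the 7 basal genes tested, Krt5 and Krt14 rose, Krt15 and Col17a1 fell and 3 were not called (adjusted p under 0.05). Their median log2 change was 0.10, so the basal percentages do not stand for each gene. Over all transcripts 19.9% were called higher and 19.1% lower. In such bulk material, fewer cells of a type and less RNA per cell cannot be told apart. RNA-seq libraries were not analysed here, so more mRNA and more ribosomes per mRNA cannot be told apart either.

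As background, a hair shaft is built by keratinocytes that leave the follicle's matrix, switch on hair keratins and then a long set of keratin-associated proteins, and die as a hardened fibre. Cysteine-rich members are joined to keratins by disulfide bonds, and the smaller high-glycine-tyrosine members lie among the filaments without being as rich in sulphur. Their genes are short, mostly without introns, and lie in clusters. In the table the coding regions had a median of 444 nt, against 1245 nt over all transcripts; the median was 186 nt for high-glycine-tyrosine members and 492 nt for cysteine-rich members. Chromosome 16 carried 21 members, among them all 12 of the high-glycine-tyrosine class, chromosome 11 carried 20, chromosome 7 carried 5 and chromosome 10 carried 3.

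Since these genes share a late place in hair differentiation, the bases before their start sites are shown first. RefSeq promoter windows (build GRCm38.p6) were found for 44 of the 49 members. The 60 bases before the annotated start follow for 10 members whose values are described below, 5′ to 3′ on the gene's strand, with each TATAAA, the core of the TATA box that positions the transcription machinery, in capitals.
Krtap8-1 (chr16:89487953-89488012, minus strand): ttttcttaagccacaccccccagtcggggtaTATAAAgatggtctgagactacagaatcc
Krtap6-5 (chr16:89047900-89047959, minus strand): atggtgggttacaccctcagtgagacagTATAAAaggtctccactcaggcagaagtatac
Krtap19-9b (chr16:88932265-88932324, minus strand): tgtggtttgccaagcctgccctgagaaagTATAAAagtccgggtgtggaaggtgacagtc
Krtap16-3 (chr16:88962874-88962933, minus strand): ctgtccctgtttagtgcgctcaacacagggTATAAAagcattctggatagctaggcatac
Krtap2-4 (chr11:99614847-99614906, minus strand): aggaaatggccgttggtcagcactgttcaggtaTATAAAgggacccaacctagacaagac
Krtap3-1 (chr11:99566631-99566690, minus strand): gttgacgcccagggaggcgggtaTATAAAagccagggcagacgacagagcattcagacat
Krtap3-2 (chr11:99556854-99556913, minus strand): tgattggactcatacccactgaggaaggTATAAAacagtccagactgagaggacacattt
Krtap3-3 (chr11:99550864-99550923, minus strand): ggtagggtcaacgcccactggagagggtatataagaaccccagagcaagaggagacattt
Krtap11-1 (chr16:89571184-89571243, minus strand): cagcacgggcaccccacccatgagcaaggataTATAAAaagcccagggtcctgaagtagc
Krtap26-1 (chr16:88647797-88647856, minus strand): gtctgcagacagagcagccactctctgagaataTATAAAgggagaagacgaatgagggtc

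TATAAA on the forward strand lay within the 250 bases before the start in 34 of the 44 members (77.3%), against 7.59% of 32851 promoters in the RefSeq table. It began 40 to 20 bases before the start in 26 of 44 members (59.1%), against 1.99% of all promoters. At that distance it was found in 21 of 31 cysteine-rich and 4 of 11 high-glycine-tyrosine members. The variant TATAAG, searched after Krtap3-3 was seen to carry it, lay in the 250 bases of 9 of 44 members (20.5%) and of 4.01% of all promoters. CTTTGA, the core bound by Lef1 and its relatives, was searched on both strands and lay in 11 of 44 members (25%) and in 13.8% of all promoters. These matches describe letters, not bound sites.

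More keratin-associated protein genes were listed in the knockout libraries than in the wild-type libraries, and the listed counts of most were higher. A count is listed in the deposited table only where it exceeds 0.01 footprints per coding nt, so an unlisted value has an upper bound (from 1 to 10 footprints for these genes) and is not a 0. All 49 genes were listed in at least 1 KO library. In both KO libraries 43 were listed, 23 of them in neither WT library, 8 in 1 WT library and 12 in both. The remaining 6 were listed in 1 KO library and in no WT library. Listing in both KO and in no WT library occurred for 1.42% of all 13167 transcripts. The 23 and the 6 without a listed WT value are described here through their KO counts alone. Their listing is therefore not support for a difference between genotypes.

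Both KO values lay above both WT values in 43 of 49 members, with unlisted values at their upper bound, a pattern seen in 23.4% of all transcripts. For 23 of the 43 no WT value was listed, so that order was nearly fixed by the listing rule. The count is therefore a description and not support for a difference. The direction was the same in every family with a value in both KO libraries. The 6 members outside that count, Krtap5-3, Krtap9-5, Krtap24-1, Krtap27-1, Krtap31-1 and Krtap31-2, lacked a listed value in 1 KO library.

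**Figure D1:**
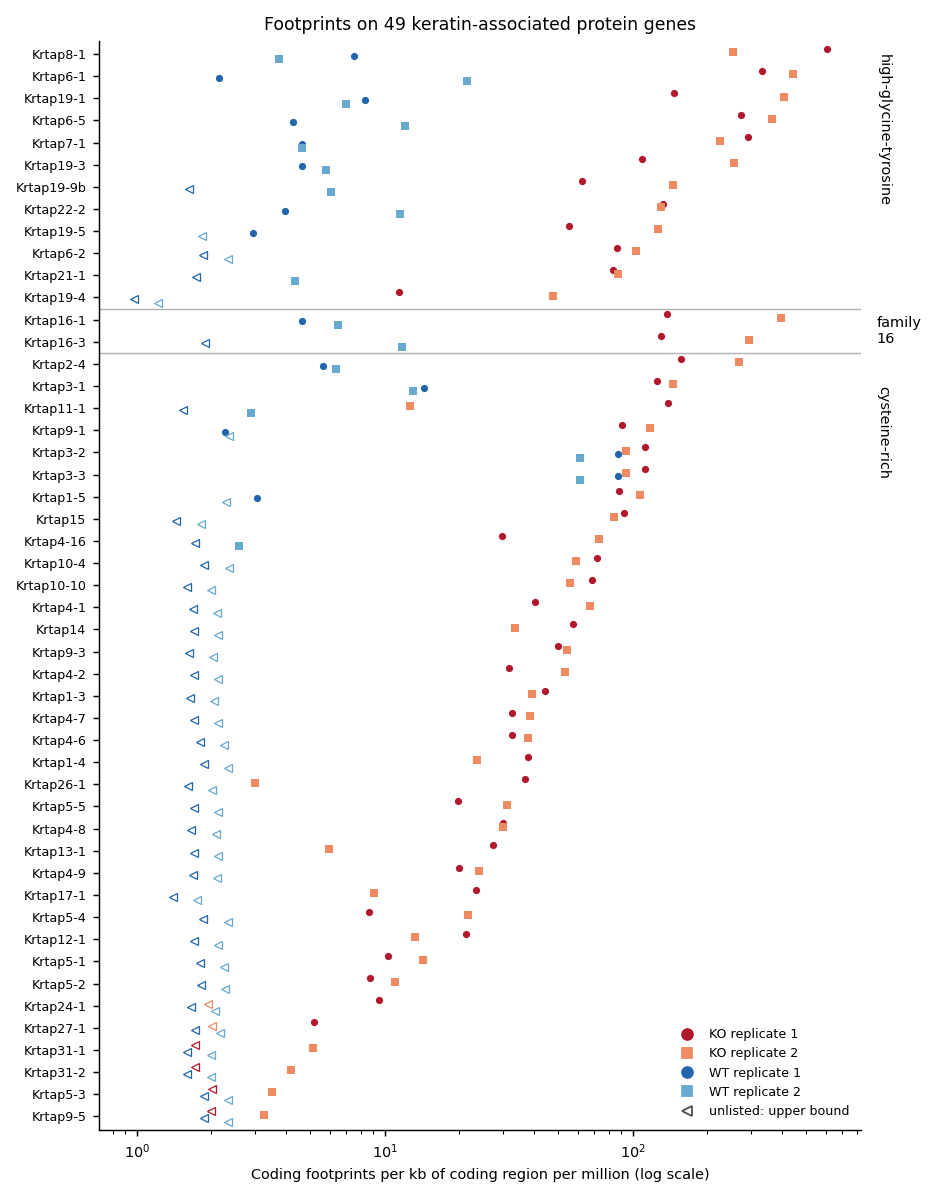
Coding footprints per kb of coding region, scaled to the library's coding total (FPKM, log scale), on each of the 49 genes in the 2 KO libraries (red circle and orange square) and the 2 WT libraries (blue circle and square), with open triangles at the upper bound of unlisted values. In 43 genes both KO points lie to the right of both WT points, but in 23 of these both WT points are bounds. Krtap3-2 and Krtap3-3 are the genes whose WT points come nearest to their KO points among those listed in all 4 libraries.

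The statistical test could be run as planned on 12 members only, those listed in all 4 libraries with enough counts. All 12 were called higher in KO (adjusted p under 0.05, edgeR's quasi-likelihood test with Benjamini-Hochberg adjustment over 10953 transcripts), against 19.9% of transcripts called higher and 39% called in either direction. With unlisted values set at their upper bound, 44 members could be tested and 42 were called higher and 0 lower, against 19% of 12631 transcripts called higher. The first test needed a listed value in every library, and its count minimum could be met by the KO libraries alone; the second could be entered on KO counts alone. These counts are therefore not support for a difference of the group as a whole. Of the 44, 20 had a listed value in at least 1 WT library and all 20 were called. The other 24, of which 22 were called, had none, so their values at the bound set KO counts against the listing limit and are no test of those genes. At the bound the median log2 change was 4.75 over the 44 members, 5.30 over 12 high-glycine-tyrosine and 4.23 over 30 cysteine-rich members, and −0.02 over all transcripts. Most of the cysteine-rich members, but only 2 of the high-glycine-tyrosine members, had no listed WT value. The class medians thus rest on the listing limit to unlike degrees and cannot be compared. The 2 members not called were Krtap5-3 (0.57) and Krtap9-5 (0.52). Each was listed in KO replicate 2 alone, so its KO replicate 1 value is a bound as well and no change was measured.

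Among high-glycine-tyrosine members, Krtap8-1, the sole family 8 gene in the table, had the highest per-length level of any member in KO replicate 1. Its coding region of 126 nt held 375 and 145 footprints in the KO libraries, against 5 and 2 in WT. As a level per length (FPKM, footprints per kb of coding region scaled to the library's coding total) this came to 604.2 and 254.5 in KO, and to 7.51 and 3.76 in WT. The groups were far apart, although KO replicate 1 was 2.37 times replicate 2 in CPM (footprints scaled to the library's coding total alone) (log2 change 6.33, SE 0.606; 5.54 without KO replicate 1). Krtap7-1, the family 7 gene, held 294 and 208 footprints in KO and 5 and 4 in WT, with both replicates of each genotype close together. Its log2 change was 5.94 (SE 0.292, against 0.551 from DESeq2).

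Family 6 genes encode small high-glycine-tyrosine proteins. Krtap6-1 held 289 and 354 footprints in the KO libraries, against 2 and 16 in WT, so its WT libraries differed more than its KO libraries. Its log2 change of 5.31 (SE 0.429, against 1.31 from DESeq2) became 7.60 without WT replicate 2 and 4.29 without WT replicate 1. Krtap6-5 held 237 and 291 in KO and 4 and 9 in WT. Its change of 5.49 became 6.37 without WT replicate 2 and 4.83 without WT replicate 1. Krtap6-2, with 173 and 190 footprints in the KO libraries, was listed in neither WT library, which places it at least 45.2-fold higher in KO.

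The 5 family 19 genes moved together in a way that set the KO libraries apart from each other. Krtap19-1 held 147 and 377 footprints in the KO libraries, against 9 and 6 in WT. Krtap19-3 held 109 and 236 in KO, against 5 and 5 in WT. In CPM, each of the 5 was lower in KO replicate 1, at 0.240 to 0.434 times replicate 2, yet each KO value was above both WT values. Without KO replicate 2 the log2 change of Krtap19-1 was 4.41 in place of 5.30, and that of Krtap19-3 was 4.55 in place of 5.26. Krtap19-5 had 35 and 74 footprints in the KO libraries, against 2 in WT replicate 1 alone. Krtap19-9b had 36 and 77 in KO, against 3 in WT replicate 2 alone. Krtap19-4, the lowest of the class, had 11 and 42 in KO and no listed WT value. With unlisted values at the bound these 3 genes, in the order named, stood at 5.27, 4.93 and 4.76 on the log2 scale, and at 4.60, 4.25 and 3.46 without KO replicate 2. Krtap19-9b also moved to 4.18 without WT replicate 1 and to 6.01 without WT replicate 2, and Krtap19-4 to 5.46 without KO replicate 1.

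Krtap21-1 and Krtap22-2, single genes of their families here, were alike in both KO libraries. Krtap21-1 held 134 and 129 footprints in the KO libraries, against 6 in WT replicate 2 and an unlisted value in replicate 1; at the bound it changed by 5.02, by 4.42 without WT replicate 1 and by 5.77 without WT replicate 2. Krtap22-2 held 94 and 85 in KO, against 3 and 7 in WT (4.30; 3.62 without WT replicate 1 and 5.20 without WT replicate 2).

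The unclassed genes resembled family 19 in their split between KO libraries. Krtap16-1 held 248 and 653 footprints in the KO libraries, against 9 and 10 in WT (5.74, SE 0.572; 4.83 without KO replicate 2). Krtap16-3 held 129 and 268 in KO, against 10 in WT replicate 2 alone. At the bound Krtap16-3 changed by 5.22, with values without 1 library from 4.30 (WT replicate 1) to 6.92 (WT replicate 2) and 4.55 without KO replicate 2. The deposited Krtap16-1 transcript has the length of Krtap19-2 in RefSeq, which lists Krtap16-1 as that gene's older symbol, and not the length of the gene now called Krtap16-1.

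Among cysteine-rich members, Krtap2-4 had the highest level per length in both KO libraries. It held 259 and 409 footprints in the KO libraries, against 10 and 9 in WT (log2 change 5.30, SE 0.334). Family 2 proteins are high-sulphur proteins of the hair cortex, the bulk of the shaft. Family 1 belongs there too. Krtap1-5 held 134 and 149 in KO, against 5 in WT replicate 1 alone, while Krtap1-3 (101 and 82) and Krtap1-4 (94 and 54) had no listed WT value.

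Family 3, also of high-sulphur cortex proteins, held the exceptions. Krtap3-1 behaved like the rest, with 146 and 155 footprints in the KO libraries, against 18 and 13 in WT (3.45, SE 0.216). Krtap3-2 and Krtap3-3 were each listed with 133 and 102 footprints in the KO libraries, against 111 and 62 in WT. Their coding counts were identical in all 4 libraries although they are distinct genes, so the same reads may stand under both, and the 2 values are not independent. KO replicate 2 lay below WT replicate 1 in raw footprints but above it in CPM, and the log2 change was 0.63 (SE 0.200, adjusted p = 0.0322). The call was lost without KO replicate 1 (0.47), without WT replicate 2 (0.45), with library totals alone (0.46), with DESeq2 (0.65) and with unlisted values at 0 (0.64).

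Outside the coding region the pair is not identical. Of the 60 bases before their starts shown above, 30 matched position by position. The other 4 pairs of members compared gave 9 to 21. No shift between windows was allowed, so likeness at another distance from the start was not counted. Krtap6-1 and Krtap6-5, at 9, share such a shifted stretch. The counts therefore do not rank the pairs by likeness. The 3′ untranslated region (UTR) of Krtap3-3 held 4 and 5 footprints in the KO libraries and 0 and 0 in WT, and that of Krtap3-2 held 7 and 8 in KO and 1 and 0 in WT. The 5′ UTR of Krtap3-3 held 2 and 0 in KO and 0 and 0 in WT, and that of Krtap3-2 held 1 and 0 in both genotypes. The pair carried 4.70% and 3.3% of all members' coding footprints in the KO libraries, but 72.8% and 52.5% in WT. The other 47 members together held 5399 and 5977 footprints in the KO libraries, against 83 and 112 in WT.

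Families 4, 5, 9 and 17 encode ultra-high-sulphur proteins. The 7 family 4 genes had between 66 and 181 footprints in each KO library, and none but Krtap4-16 had a listed WT value. Krtap4-16 held 80 and 181 in KO, against 6 in WT replicate 2 (4.74 at the bound, 3.99 without KO replicate 2). The other 6 were at least 11.6-fold (Krtap4-9) to at least 28.4-fold (Krtap4-1) higher in KO. Krtap9-1 held 223 and 266 in KO, against 6 in WT replicate 1 alone. Krtap9-3 held 86 and 86 in KO, and Krtap9-5 just 15 in KO replicate 2.

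Krtap10-4 (214 and 161 in KO) and Krtap10-10 (201 and 150 in KO) had no listed WT value and were at least 30.9-fold and 34.7-fold higher in KO. Krtap12-1 held 35 and 20 and Krtap17-1 held 31 and 11 in KO, again with no listed WT value. Krtap17-1 stood at a log2 value of 3.50 at the bound and at 2.62 without KO replicate 1.

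Family 5, known from the cuticle that sheathes the shaft, had low levels per length. Krtap5-1 held 32 and 41, Krtap5-2 held 45 and 52, Krtap5-4 held 26 and 60 and Krtap5-5 held 65 and 94 footprints in the KO libraries, and none had a listed WT value. With coding regions of 612 to 1044 nt the bound is loose here, and the lower limits ran from 4.84-fold (Krtap5-2) to 13.3-fold (Krtap5-5). Krtap5-4 stood at a log2 value of 3.02 at the bound and at 2.25 without KO replicate 2. Krtap5-3 was listed in KO replicate 2 alone, with 16 footprints.

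Several single-gene families on chromosome 16 leaned to KO replicate 1, the opposite of family 19. Krtap11-1 held 335 and 28 footprints in the KO libraries, against 6 in WT replicate 2 alone. Krtap26-1 held 106 and 8 in KO and no listed WT value, which allows at most 5. Krtap13-1 held 60 and 12 in KO and no listed WT value. In CPM, KO replicate 1 was 10.98 times replicate 2 for Krtap11-1, 12.2 times for Krtap26-1 and 4.59 times for Krtap13-1. At the bound Krtap11-1 changed by 5.32 (SE 1.28, adjusted p = 0.0151), by 2.69 without KO replicate 1 and by 6.19 without KO replicate 2. Krtap13-1, with no measured WT value, stood at 3.32 at the bound, at 1.79 without KO replicate 1 and at 4.03 without KO replicate 2. Krtap26-1 was at least 10.9-fold higher in KO on the mean of both libraries, a value that rests on replicate 1.

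Krtap14 (126 and 67 in KO) and Krtap15 (178 and 149 in KO) had no listed WT value. Krtap15 had the highest lower limit of all, at least 54.0-fold. Krtap24-1 (32 footprints) and Krtap27-1 (14) were listed in KO replicate 1 alone, and Krtap31-1 (11) and Krtap31-2 (9) in KO replicate 2 alone. The last 2 have identical RefSeq promoter windows. No direction between genotypes is given for these 4.

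**Figure D2:**
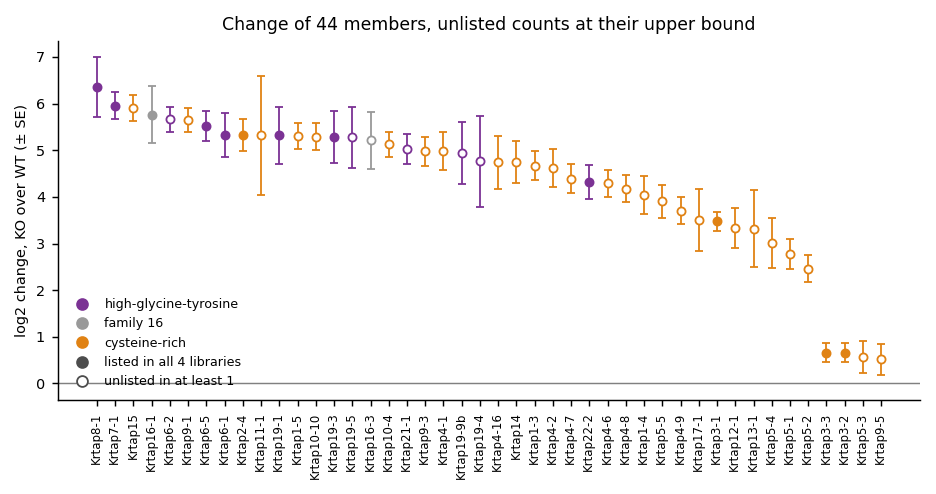
Log2 change of coding footprints, KO over WT, for the 44 members that could be tested with unlisted values at their upper bound. Error bars are SEs derived from the test statistic. Genes are ordered by size of change and coloured by class, with open symbols for those unlisted in at least 1 library. For 24 genes both WT values are bounds. Plotted values run from 6.35 (Krtap8-1) to 0.52 (Krtap9-5), with Krtap3-2, Krtap3-3, Krtap5-3 and Krtap9-5 below 1 and the rest above 2. For Krtap5-3 and Krtap9-5 the KO replicate 1 value is a bound too, so theirs are not measured changes.

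Summed over all 49 members, footprints came to 1150 and 1367 CPM in KO, against 57.7 and 55.9 in WT. The means were 1259 ± 153.4 in KO and 56.8 ± 1.30 in WT (SD, n = 2 each), a ratio of 22.2. The exact two-sided permutation test gave p = 0.33, the smallest that 2 against 2 libraries allow. With unlisted values at their upper bound the ratio was 14.03, and without the indistinguishable pair it was 57.2 with unlisted values at 0 and 22.3 with them at the bound.

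High-glycine-tyrosine members summed to 392.6 and 488.3 CPM in KO, against 6.63 and 13.7 in WT, a ratio of 43.3, or 37.5 at the bound. Cysteine-rich members summed to 680.9 and 675.0 CPM in KO, against 49.4 and 37.4 in WT, a ratio of 15.6, or 9.11 at the bound. Without Krtap3-2 and Krtap3-3 the cysteine-rich ratio was 81.4, above that of the high-glycine-tyrosine class, and 16.2 with unlisted values also at the bound, below it. Both exact permutation tests gave p = 0.33. The log2 ratio of the high-glycine-tyrosine sum, 5.43, was 6.05 without WT replicate 2. On the per-length scale (FPKM), the median listed member of the high-glycine-tyrosine class stood at 120.5 and 185.6 in KO, against medians for cysteine-rich members of 36.6 and 33.4 in the same libraries.

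Whether the balance of the classes differed between genotypes could not be settled. High-glycine-tyrosine members took 36.6% and 42.0% of the footprints of both classes in KO, against 11.8% and 26.9% in WT, a difference of 19.9 percentage points (exact permutation p = 0.33). It was 12.4 points without WT replicate 1, 11.9 points with Krtap3-3 counted out and 21.6 points with the deposited Krtap16-1 counted in family 19. With both Krtap3-2 and Krtap3-3 left out the shares were 38.5% and 43.7% in KO and 47.3% and 63.0% in WT, the opposite order (−14.1 points). With the pair left out and unlisted values at their bound they were 38.3% and 43.6% in KO and 19.05% and 26.12% in WT. The sign thus turned on the pair and on what is assumed of unlisted WT values.

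**Figure D3:**
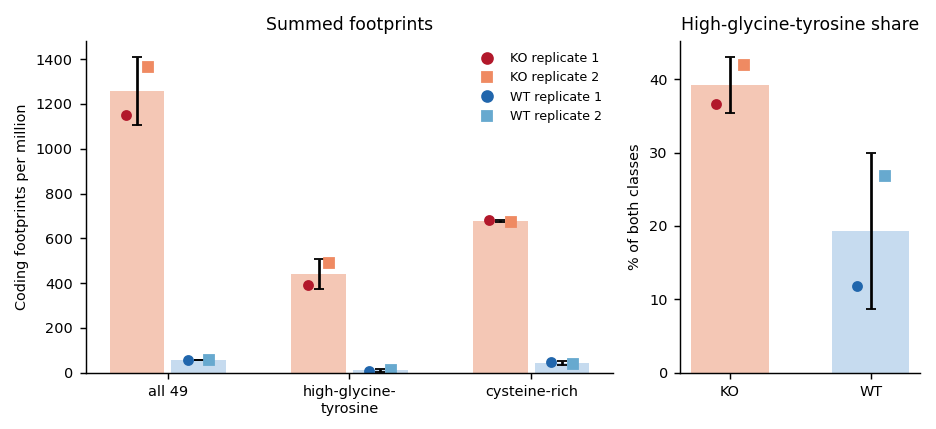
Left, coding footprints in CPM summed over all 49 genes and over each class, and right, the high-glycine-tyrosine percentage of both classes' footprints, with bars at the mean of the 2 KO (left of each pair) and the 2 WT libraries, SD as error bars and a point for each library. The summed KO means are 1259 for all genes, 440.5 for high-glycine-tyrosine and 677.9 for cysteine-rich genes, against 56.8, 10.2 and 43.4 in WT, and the KO shares of 36.6% and 42.0% lie above the WT shares of 11.8% and 26.9%, an order that turns when Krtap3-2 and Krtap3-3 are left out with unlisted values at 0.

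The KO libraries differed from each other, and in opposite directions in different families. Of the 43 members listed in both, 14 differed by over 2-fold between the KO libraries in CPM, against 2.32% of 11383 transcripts listed in both. Krtap8-1, Krtap11-1, Krtap13-1, Krtap17-1 and Krtap26-1 were over 2-fold higher in replicate 1. All 5 members of family 19, both of family 16, Krtap4-16 and Krtap5-4 were over 2-fold higher in replicate 2. The median ratio of replicate 1 to replicate 2 was 0.848 over the members and 0.971 over all transcripts. The summed cysteine-rich class, at 680.9 and 675.0 CPM, showed no such split.

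The filament genes did not split that way. All 10 hair shaft keratins listed in both KO libraries were higher in replicate 1, by 1.57-fold (Krt84) to 12.2-fold (Krt35), as were all 9 inner root sheath and companion layer keratins, by 1.07-fold (Krt26) to 4.92-fold (Krt28). Melanocyte genes, which mark the pigment cells of the hair bulb, were 1.61-fold to 2.33-fold higher in replicate 1 in the 6 listed in both. Whether the mix of follicle cells or hair stages differed between the KO libraries was not tested.

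**Figure D4:**
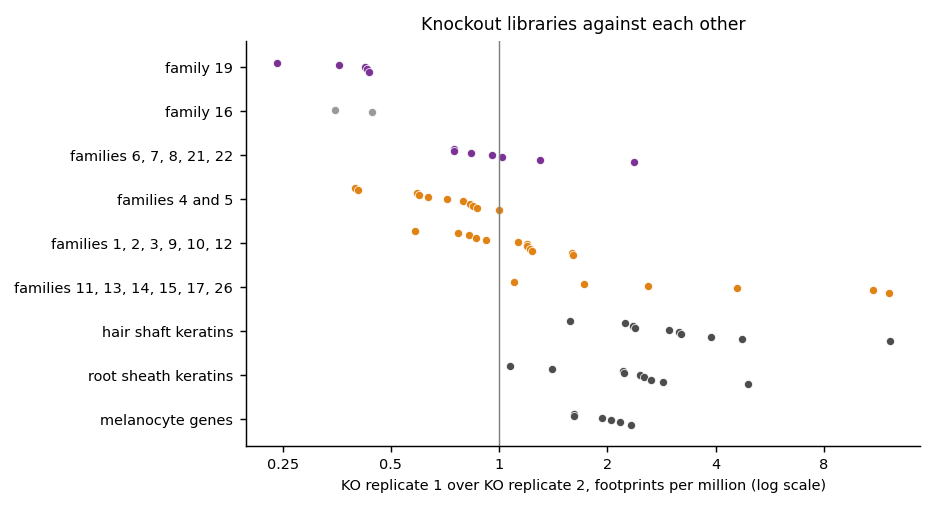
CPM in KO replicate 1 over KO replicate 2 (log scale) for members grouped by family and, below, for hair shaft keratins, root sheath keratins and melanocyte genes; each point is a gene listed in both KO libraries and the vertical line marks equal values. Families 19 and 16 lie between 0.240 and 0.442, families 11 and 26 at 10.98 and 12.2, and every hair shaft keratin above 1.5.

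Many other hair genes were higher in KO too, though not all of those tested. Of 11 hair shaft keratins in the table, which form the filaments, 2 could be tested and both rose. Krt81 held 1530 and 597 footprints in the KO libraries, against 108 and 79 in WT (log2 change 3.67, SE 0.372; 2.89 without KO replicate 1). Krt86 had nearly the same counts, and these near-identical genes may share reads. Krt35, Krt40, Krt82 and Krt84 were listed in both KO libraries but no WT library, as were 1.42% of all transcripts. Of 8 root sheath keratins tested, which are not genes of the shaft, 6 rose and 2 were not called, with a median of 2.50. Over all transcripts 19.9% were called higher. Krt71, of the inner root sheath, held 5194 and 1800 in KO, against 556 and 267 in WT.

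On a list of 19 structural and cross-linking genes of the hair follicle, 10 were tested, of which 6 rose, none fell and 4 were not called. The list is not particular to hair: Sbsn, which was not called, is also on the suprabasal epidermal list below. The share called higher over all transcripts was 19.9%. Tchh, trichohyalin, which hardens the inner root sheath and medulla, held 13761 and 7214 footprints in the KO libraries, against 195 and 319 in WT (5.46, SE 0.395; 6.10 without WT replicate 2). Prr9 held 329 and 160 in KO, against 7 and 5 in WT (5.49, SE 0.438). A further 7 were listed in both KO libraries but no WT library, against 1.42% of all transcripts. Among them were Padi3, an enzyme that converts arginine in trichohyalin to citrulline, and Dsg4, a desmoglein of the hair shaft.

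Of 15 tested genes on a list of regulators of hair differentiation, 5 rose, 2 fell and 8 were not called, with a median log2 change of 0.39. Over all transcripts 19.9% were called higher, 19.1% lower and 39% in either direction. The list is mostly transcription factors, but Nfkbia, which encodes an inhibitor protein, is not one. Gata3 (−1.34) and Nfkbia (−0.81) were the 2 that fell, and Prdm1 rose the most (1.60). Hoxc13, which is known to act on hair keratin and keratin-associated protein genes, held 55 and 30 footprints in the KO libraries, against 18 and 22 in WT (1.25, adjusted p = 0.0209). Its call was lost without KO replicate 1 (0.79), without WT replicate 1 (0.91), with DESeq2 (1.24) and with unlisted values at 0 (1.23). Msx2 held 60 and 24 in KO, against 21 and 16 in WT (1.35, adjusted p = 0.0272). That call was lost without KO replicate 1 (0.59), WT replicate 1 (1.35) or WT replicate 2 (1.36), and with unlisted values at 0 (1.35). Foxn1, which acts in hair keratinization, held 83 and 51 in KO and 63 and 31 in WT (0.70, adjusted p = 0.0794), which was not called; it passed without KO replicate 2 (0.98) and without WT replicate 1 (1.07). Lef1 was listed in KO replicate 1 alone, with 15 footprints.

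Of the marker lists of other cells, the melanocyte list and most of the suprabasal list were higher in KO, as the members were. Most other lists were lower or not called. Over all transcripts 19.9% were called higher and 19.1% lower. Melanocyte genes summed to 337.8 and 166.5 CPM in KO, against 21.01 and 23.92 in WT, and all 4 tested rose, with Pmel at 555 and 219 footprints in the KO libraries and 34 and 29 in WT (3.78; 3.01 without KO replicate 1). Sebaceous gland genes, which belong to another part of the hair unit, went the other way: 8 of 10 tested fell, none rose, and the sum was 789.5 and 1306 in KO, against 4479 and 4350 in WT. None of 3 dermal papilla genes tested was called, at 107.2 and 82.05 CPM in KO and 136.5 and 157.3 in WT. Of 6 adipocyte genes tested 5 fell and none rose, with sums of 726.2 and 599.8 CPM in KO and 1809 and 1225 in WT, and of 2 skeletal muscle genes 1 fell. Of 10 fibroblast genes 5 fell and 1 rose, of 9 immune genes 7 fell and none rose, and of 7 suprabasal epidermal genes 6 rose and none fell. Krt2, also on the suprabasal list but not testable, went the other way. It was listed in both WT libraries (24 and 32 footprints) and in neither KO library. The part of the cell mix, or of the phase of the hair cycle, in the higher Krtap counts was not tested.

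Since Pelota acts on stalled ribosomes, footprints beyond the stop codon were counted too. Over members listed with a 3′ UTR, it held 106 and 119 footprints in the KO libraries, beside 5312 and 5782 in the coding regions, and 9 and 1 in WT, beside 299 and 236. Per nt this was 2.37% and 2.55% of the coding density in KO, and 2.06% and 0.357% in WT. Over all transcripts the same ratio was 0.754% and 0.804% in KO and 0.925% and 0.875% in WT. The WT values rest on 10 footprints in all, so a difference between genotypes was not detectable at this depth. In the 5′ UTRs of members 16 and 2 footprints were counted in KO, and 1 and 0 in WT.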

How the data were processed

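The authors deposited raw counts of footprints per transcript region, with 1 transcript per gene as a rule. Per the submitters' processing notes, the tools were TopHat2 2.0.10, Bowtie2 2.2.6 and CASAVA 1.8 and the builds mm9 and hg19, with no roles given. The sources used here do not say how reads matching several genes were handled, which bears on gene families. Per the file headers, tables of footprints of 28 to 34 nt and of 20 to 22 nt were made, but they are byte-identical, so the length class is unknown.

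Groups follow the genotype named in each title. Coding counts, scaled by TMM (factors 0.928 and 0.959 for KO; 1.09 and 1.03 for WT), were tested using edgeR 4.0.16 (quasi-likelihood, R 4.3.3), two-sided, with Benjamini-Hochberg adjustment over all 10953 transcripts listed in all 4 libraries with at least 10 counts in at least 2, at a threshold of 0.05. The biological coefficient of variation was 11.1%, and listed transcripts had a median of 90 to 112 footprints per library. Each SE is the absolute log2 change divided by the square root of the test's F statistic, unless credited to DESeq2. It is not an SE estimated by the fit and can overstate precision. DESeq2's own SEs were larger for all 12 members tested. The test was checked on simulated counts of transcripts listed in all 4 libraries. That check did not cover values at the bound or changes as large as those of most members. Unlisted values were taken as at most 0.01 footprints per coding nt; folds against them are lower limits of the ratio of mean CPM, and sums take them as 0 unless stated. Reads carry no molecular identifiers. Symbols of all 49 members matched RefSeq, 45 with the same transcript length; promoters are from RefSeq, and mm9 coordinates were not used here.

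Members, gene lists and tests were chosen with earlier results of these data known. All members may be named; of other lists, up to 4 tested genes with the largest change, 4 transcription factors (Hoxc13, Foxn1, Lef1 and Msx2) and genes listed in both libraries of 1 genotype and neither of the other. Krt86, Krt26 and Krt84 are also named as ends of a range or beside Krt81. Nfkbia is named because it is not a transcription factor, and Sbsn because it is on both the structural and the suprabasal list. Likeness of other genes' patterns over 4 libraries was not computed, as too few. Alternatives were other scalings, DESeq2 1.42.0, other treatments of low and unlisted counts, a replicate block and leaving out each library.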

Additional observations from a re-analysis of the deposited data

How the results depend on the processing

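Leaving out both Krtap3-2 and Krtap3-3, an alternative added after seeing the data, turned the difference in the high-glycine-tyrosine share from 19.9 to −14.1 percentage points; the cause was not tested beyond that with unlisted values also at their bound it was 18.4 points. The summed ratios kept their direction in every setting run. Without each library in turn, log2 ratios ranged from 4.34 to 4.59 for all members, from 5.003 to 6.05 for high-glycine-tyrosine and from 3.78 to 4.18 for cysteine-rich members, and the share difference from 12.4 to 27.5 points. Called members numbered 12 as planned, 40 with unlisted counts at 0 and 42 with them at the upper bound, since more transcripts then enter; called hair shaft keratins numbered 2, 9 and 8. At the bound, 40 members were called with library totals alone, 39 with DESeq2 and 40 to 42 without 1 library. Over all transcripts 4277 were called (2184 higher, 2093 lower), DESeq2 called 2669 (1492 higher, 1177 lower), and library totals alone gave 1523 higher and 2986 lower with a median log2 change of −0.19 in place of −0.02. Of 132 alternative values for the 12 members tested, 122 kept direction and call; the other 10 are the lost calls of Krtap3-2 and Krtap3-3. Replicate numbers are shared by label only: deviations of same-numbered libraries correlated at −0.005 across 10953 transcripts, and with the replicate block 2212 were higher and 2125 lower (4337 in all), with 12 members called as before; Foxn1, not called otherwise with all libraries, passed with the block (adjusted p = 0.025). The 2 libraries per genotype and few WT footprints limit precision, and a quiet gene below the listing limit cannot be told from one without footprints.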
